A study of Mus musculus with 16 samples.

Results

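The nuclear-encoded subunits of the mitochondrial respiratory chain were followed in gastrocnemius, a calf muscle, of 16 mice. The members were all rows of the deposited gene table whose symbol starts with Nduf and 1 of the letters a, b, c, s or v and a digit (complex I), is Sdha, Sdhb, Sdhc or Sdhd (complex II), or starts with Uqcr (complex III), with Cox and a digit from 4 to 8 (complex IV), or with Atp5 (complex V). This rule took 85 of 21923 rows, with 37 in complex I, 4 in complex II, 8 in complex III, 18 in complex IV and 18 in complex V. Ndufa4 and Ndufa4l2 were counted with complex I because of their prefix, although Ndufa4 is now regarded as a subunit of complex IV.

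The study compared poly(A) RNA of tumor-bearing mice with cancer cachexia, the wasting of muscle and fat that accompanies a tumor, with that of mice treated with amiloride, a drug the study used against exosome release by the tumor. There were 4 groups with 4 libraries each, 1 library per mouse, and all muscles were taken on day 30. NOR mice were injected with PBS in place of cells and carried no tumor. CAC mice received tumor cells under the skin of the right flank on day 0 and PBS into the abdomen every day from day 9. AM mice received the same cells and amiloride at 2 mg/kg every day from day 9. KD mice received tumor cells in which Rab27a and Rab27b, genes of exosome release, had been knocked down by lentiviral shRNA, and the knock-down was in the tumor cells and not in the mouse. NOR and KD mice were given the daily PBS as well. Mice were 6 to 8 weeks old, and the protocol gives male C57BL/6 and male and female BALB/c mice. The published methods name only males for both strains, so the sources differ on the sex of the BALB/c mice. In each group replicates 1 and 2 are labelled C57BL/6, the host of LLC (Lewis lung carcinoma) cells, injected at 700000 cells, and replicates 3 and 4 BABL/c (BALB/c in the protocols), the host of CT26 (colon carcinoma) cells, injected at 1000000 cells. The labelled strain and the tumor line therefore cannot be told apart.

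Electrons from NADH enter the respiratory chain at complex I and those from succinate at complex II. They pass over complex III to complex IV, which reduces oxygen, and the proton gradient built up on the way drives the ATP synthase, complex V. Most subunits are encoded in the nucleus, a few core subunits of complexes I, III, IV and V are encoded by mitochondrial DNA, and some nuclear subunits of complexes IV and V exist as isoforms of which 1 prevails in striated muscle.

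Libraries held 35913190 to 61032708 counts on genes, and the members took 1.5% to 2.23% of them. The strain labels were not borne out by the counts. Among 10897 genes whose highest library exceeded 8 CPM (counts per 1000000 counts of a library, scaled by TMM), 0 separated the libraries labelled C57BL/6 from those labelled BABL/c. Instead 305 genes separated CAC replicate 4, AM replicates 1 and 3 and KD replicate 1 from the other 12 libraries, among them Trim12a (0 to 0.759 CPM against 5.28 to 21.2 CPM), and 0 of these 305 were members. KD replicate 3 had 0 CPM of the Y-linked genes Ddx3y and Uty, which lay at 46.8 to 89.7 CPM and 8.95 to 13.3 CPM elsewhere. AM replicate 1 held the liver transcript Alb at 1208 CPM, against at most 15.4 CPM in the other libraries. The 10 skeletal muscle markers were present in all libraries, with a summed level of 66172 CPM (CAC replicate 3) to 199900 CPM (NOR replicate 1). Results are therefore also given without the 4 libraries set apart by Trim12a, a choice made after the values were seen.

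Of the 85 members, 82 passed the filter on low counts. Cox7b2 and Cox8c, isoforms of complex IV known from testis, had 0 counts in every library, and a shorter Atp5o entry (ENSMUSG00000116933), for which 94.0% of the 31-base words also occur elsewhere in the annotation, most often in Donson (51.4%), was counted in 3 libraries at no more than 0.0993 CPM. Levels of different genes can be compared as FPKM, which the authors divided by gene length. The 82 tested members had a median of 216 FPKM in NOR, and 77 of them reached 50 FPKM. The highest were Atp5b, the catalytic beta subunit of the ATP synthase (1408 ± 121 FPKM, SD, n = 4), Uqcrc1, a core protein of complex III (1188 ± 69.0 FPKM), Cox6a2, the muscle isoform of Cox6a (857 ± 112 FPKM), and Cox4i1, a regulatory subunit of complex IV (849 ± 44.6 FPKM). The last 2 did not differ beyond their spread. The lowest were Cox6b2 (1.09 ± 0.237 FPKM), Cox4i2 (5.86 ± 0.761 FPKM) and Atp5s (7.57 ± 0.840 FPKM).

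The 300-base promoter windows of RefSeq (GRCm38.p6, from 250 bases before to 50 after a transcript start) held 71 windows for 66 of the 84 member symbols. They were searched on both strands for letters bound by factors known to act on mitochondrial genes, and a match describes the letters only. The NRF1 motif (10 letters, given by its name alone) stood in 25.35% of the member windows and 4.6% of all 32851 windows. CCGGAAG, the letters of GABPA, stood in 22.54% and 8.86%, AAGATGGC (YY1) in 12.68% and 2.75%, and AAGGTCA, the letters of the estrogen-related receptors, in 11.27% and 4.72%. The muscle letters CTAAAAATA (MEF2) stood in 0 of the 71 windows and 0.52% of all, and CAGCTG, an E-box, in 8.45% and 16.3%. At least 1 of the first 4 motifs stood in 38 of 71 member windows (53.52%) and in 18.93% of all windows of the table. The last letters of CCGGAAG can overlap the first of AAGATGGC and AAGGTCA.

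Stretches before the RefSeq start are shown for 4 members that the results below turn on, on the strand of the gene, with motif letters in capitals (in Sdhd, Atp5g3 and Cox6a1 also the reverse complement, CTTCCGG or TGACCTT). RefSeq and GENCODE M21 place some starts differently. The stretch of Cox7a1 therefore ends where its GENCODE gene begins, and the last 23 bases shown for Cox6a1 lie within its GENCODE gene. The first 25 bases shown for Sdhd lie in an exon of Timm8b on the other strand.
Cox7a1, chr7:30183994-30184143, + strand: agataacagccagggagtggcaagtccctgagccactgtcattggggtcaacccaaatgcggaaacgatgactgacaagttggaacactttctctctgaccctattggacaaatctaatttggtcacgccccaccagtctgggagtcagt
Sdhd, chr9:50603850-50603934, - strand: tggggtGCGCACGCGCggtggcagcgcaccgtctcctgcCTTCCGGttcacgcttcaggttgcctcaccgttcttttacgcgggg
Atp5g3, chr2:73911327-73911406, - strand: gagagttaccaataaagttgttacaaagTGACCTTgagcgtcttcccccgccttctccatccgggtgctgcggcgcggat
Cox6a1, chr5:115348959-115349128, - strand: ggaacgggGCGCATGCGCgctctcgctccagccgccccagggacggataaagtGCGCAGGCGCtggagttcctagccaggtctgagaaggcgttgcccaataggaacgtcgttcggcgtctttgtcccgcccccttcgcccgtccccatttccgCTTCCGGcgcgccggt
The whole window of Cox7a1 held none of the first 4 motifs, and the stretch of Cox6a1 held 2 copies of the NRF1 letters and 1 of the GABPA letters.

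In CAC vs. NOR 10 members fell past the threshold, and most of the others had values below 0 without passing it. A gene was counted as differentially expressed (DEG) at an edgeR quasi-likelihood FDR (Benjamini-Hochberg over all genes tested) no higher than 0.05 with a change of 1.5-fold or more in either direction. By this measure 10 of 82 members fell and 0 rose, where 5.13% of all 14666 genes fell and 4.32% rose. Without the fold limit 13 members were lower (6.17% of all genes). The log2 fold change was below 0 for 76 of 82 members (48.8% of all genes), with a median of -0.38 and a range of -1.43 to 0.26, against a median of 0.01 for all genes. The median deviation of the members from their group mean had an SD of 0.227 between mice of a group (log2), beside which the median of -0.38 stands with no test of its own. On the TMM CPM scale the values of the 2 groups did not overlap, with CAC below NOR, for 31 members (10.8% of all genes). With CAC above NOR this held for 0 (12.5%). The scale mattered here, as in FPKM Ndufa7 (200 to 227 in NOR, 243 to 337 in CAC) lay above NOR without overlap. So did Atp5g2 (191 to 224 and 261 to 281 FPKM). At an unadjusted edgeR p under 0.05, 0 members were higher (15.5% of all genes), and 2 with total-count scaling (20.9%). Of the 12 promoter windows of members that passed the FDR limit, 8 (66.67%) held at least 1 of the 4 motifs shown above, against 53.52% of all member windows, and Cox7a1, the member that fell most, held none. In bulk RNA, fewer cells of a type and less RNA per cell cannot be told apart.

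Complex by complex, members of CAC vs. NOR had a median log2 fold change of -0.37 for complex I, -0.55 for complex II, -0.43 for complex III, -0.31 for complex IV and -0.45 for complex V. The summed level of all members was 25314, 21042, 19846 and 20047 CPM in NOR replicates 1 to 4 and 16310, 17439, 12149 and 19238 CPM in CAC. On this TMM scale all CAC libraries lay below all NOR libraries, by the widest margin in replicate 3. On the authors' FPKM scale the sums were 20968 to 24135 in NOR and 16924, 17215, 19030 and 22579 in CAC, so CAC replicate 4 lay within NOR and the groups overlapped. In AM the sums were 16826, 18124, 21872 and 21592 CPM, and in KD 18425, 21771, 22148 and 19501 CPM, so that both groups overlapped NOR and CAC. By complex, CAC lay below NOR in CPM without overlap except in complex IV (2111 to 3117 in CAC, 2751 to 3541 in NOR). In FPKM complex II did not overlap (757 to 979 in CAC, 1058 to 1215 in NOR). Neither did complex III (2275 to 3010 and 3196 to 3561 FPKM), while complexes I, IV and V overlapped.

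**Figure D1:**
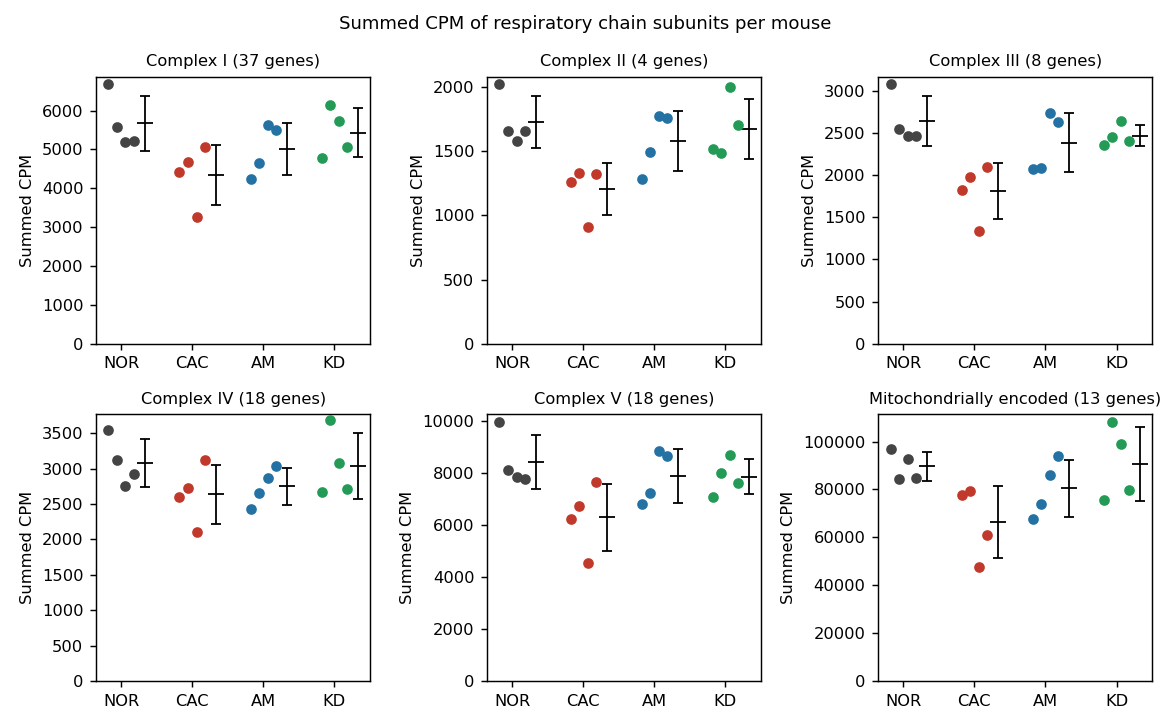
Summed CPM (vertical axes, from 0) of the subunits of each complex and of the 13 mitochondrially encoded subunits, with 1 point per mouse in the order of replicates 1 to 4 and the mean ± SD (n = 4) to the right of each group. CAC replicate 3 was the lowest of the 16 libraries in all 6 panels, and NOR replicate 1 was the highest in complexes I, II, III and V.

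Single libraries moved these values. CAC replicate 3 was the lowest of the 16 libraries for 70 of 82 members, and NOR replicate 1 was the highest for 51. The median of the members in CAC vs. NOR was -0.25 without CAC replicate 3 and -0.27 without NOR replicate 1. The TMM factor of CAC replicate 3 was 1.24, which divides its CPM, and its members took 1.5% of its counts against 1.55% to 2.04% in the other CAC libraries. All 10 DEGs lost the call when NOR replicate 1 or NOR replicate 2 was left out, and 1 kept it without CAC replicate 1. The median was -0.39 without NOR replicate 2 and -0.39 without CAC replicate 1, no smaller than that of all mice. Without CAC replicate 4, the only CAC or NOR library set apart by Trim12a, 13 members fell (4.89% of all genes) and the median was -0.49.

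In complex I, 4 of 37 members fell in CAC vs. NOR and 36 of 37 had a log2 fold change below 0. Ndufs1 (ENSMUSG00000025968, chromosome 1, 63143596 to 63176833) encodes the largest core subunit of the arm that takes up electrons from NADH. It had 387, 297, 298 and 290 CPM in NOR and 189, 211, 120 and 215 CPM in CAC, and 219, 247, 355 and 320 CPM in AM and 283, 231, 332 and 305 CPM in KD. Every CAC library lay below every library of the other groups, and the log2 fold change from NOR to CAC was -0.80 (SE 0.20, edgeR FDR 0.0313). Ndufc1, an accessory subunit of the membrane arm, had 54.7, 52.0, 39.1 and 43.0 CPM in NOR and 26.3, 33.5, 19.0 and 29.3 CPM in CAC. The groups did not overlap, and the log2 fold change was -0.81 (SE 0.18, edgeR FDR 0.0241). Ndufb2, also of the membrane arm, had 68.1, 64.8, 54.5 and 53.8 CPM in NOR and 42.4, 41.0, 25.4 and 38.2 CPM in CAC. CAC replicate 3 was again the lowest, and the log2 fold change was -0.72 (SE 0.17, edgeR FDR 0.0252).

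Ndufs8, a core subunit that carries iron-sulfur clusters and was named after its values were seen, had 153, 114, 116 and 113 CPM in NOR and 80.8, 85.9, 58.8 and 93.5 CPM in CAC, with a log2 fold change of -0.65 (SE 0.17, edgeR FDR 0.0380). Ndufs4, an accessory subunit of the matrix arm, had 128, 120, 111 and 114 CPM in NOR and 79.4, 100.2, 67.2 and 73.8 CPM in CAC. It passed the FDR limit (log2 fold change -0.57, edgeR FDR 0.0249) but not the fold limit, as did Ndufb10 of the membrane arm (-0.56, FDR 0.0443), which was also named after its values were seen. The 7 nuclear core subunits of complex I had a median log2 fold change of -0.39 with 7 of 7 below 0, and the 28 accessory ones -0.36 with 27 of 28 below 0. The exception was Ndufa7, an accessory subunit of the matrix arm, at 127, 114, 103 and 102 CPM in NOR and 130, 127, 109 and 162 CPM in CAC. Its log2 fold change of 0.24 did not pass the test (FDR 0.299). These CPM values overlapped, whereas in FPKM Ndufa7 had 200 to 227 in NOR and 243 to 337 in CAC, without overlap. Ndufa4 and its paralog Ndufa4l2 had log2 fold changes of -0.39 (FDR 0.0920) and -0.30 (FDR 0.447).

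The 4 subunits of complex II, the succinate dehydrogenase, all had an unadjusted edgeR p under 0.05 in CAC vs. NOR with CAC lower, where 13.6% of all genes did, and 43 of the 82 members did. The 43 became 25 without NOR replicate 1 (10.9% of all genes) and 28 without CAC replicate 1 (12.3%). Sdha (chromosome 13, 74322254 to 74350280), the subunit that binds FAD and succinate, had 1017, 787, 777 and 852 CPM in NOR and 638, 677, 473 and 572 CPM in CAC. Its groups did not overlap, and the log2 fold change was -0.55 (SE 0.16, edgeR FDR 0.0511), just short of the limit. Sdhd, a membrane anchor, had 314, 279, 258 and 265 CPM in NOR and 190, 209, 150 and 222 CPM in CAC. It passed the FDR limit without the fold limit, at -0.54 (SE 0.14, edgeR FDR 0.0363). Sdhc, the other anchor, had a log2 fold change of -0.42 (FDR 0.119).

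In complex III both core proteins fell. Uqcrc1 (ENSMUSG00000025651, chromosome 9, 108936633 to 108949623) had 1129, 869, 914 and 890 CPM in NOR and 589, 633, 386 and 629 CPM in CAC, and 804, 728, 1032 and 1023 CPM in AM and 878, 765, 1000.2 and 929 CPM in KD. CAC lay below each of the other groups without overlap, and CAC vs. NOR gave a log2 fold change of -0.78 (SE 0.18, edgeR FDR 0.0283). Uqcrc2 had 486, 400.3, 393 and 388 CPM in NOR and 276, 291, 193 and 308 CPM in CAC, with a log2 fold change of -0.65 (SE 0.16, edgeR FDR 0.0336). It shares 18.5% of its 31-base words with the overlapping gene Pdzd9, and how far this affects its count was not tested. Uqcrfs1, the Rieske iron-sulfur protein, and Uqcrh, the hinge protein that binds cytochrome c1, had log2 fold changes of -0.50 (FDR 0.0766) and -0.45 (FDR 0.0524), and Uqcr11, a small subunit, one of -0.42 (FDR 0.106). Uqcrc1, Uqcrc2 and Uqcrfs1 together had a median of -0.65.

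In complex IV, Cox7a1 and Cox5a fell and the other 14 tested members did not pass the test. Cox7a1 (ENSMUSG00000074218, chromosome 7, 30184144 to 30186078), the heart and skeletal muscle isoform of subunit VIIa, changed most of all members. It had 84.4, 69.2, 54.7 and 64.5 CPM in NOR and 26.7, 36.6, 11.5 and 27.6 CPM in CAC, and 35.6, 36.05, 51.5 and 71.5 CPM in AM and 52.0, 54.4, 58.5 and 56.4 CPM in KD. NOR and KD lay above CAC without overlap, while the lower AM libraries reached into CAC. CAC vs. NOR gave a log2 fold change of -1.43 (SE 0.31, edgeR FDR 0.0213). Cox5a, a subunit on the matrix side, had 432, 379, 344 and 335 CPM in NOR and 248, 259, 177 and 281 CPM in CAC, and the log2 fold change was -0.64 (SE 0.16, edgeR FDR 0.0352). Cox5a shares 13.8% of its words with other annotated genes, the most (10.1%) with Gm26631. Cox5b, the zinc-binding subunit, had a log2 fold change of -0.50 (FDR 0.0651) and Cox4i1 one of -0.38 (FDR 0.120), and they share 16.1% and 12.9% of their words with other annotated genes.

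Isoforms of complex IV were also compared by their ratio within a library, which does not depend on scaling. After adjustment 0 of the 15 ratio tests passed. No pair could pass on its own, because 4 against 4 gives no exact p under 0.0286, so the adjusted values cannot decide for a single pair. Cox7a2, the isoform of subunit VIIa found in most tissues, had 109, 95.1, 85.7 and 89.4 CPM in NOR and 73.8, 75.9, 60.8 and 98.9 CPM in CAC, which overlapped (log2 fold change -0.30, FDR 0.238). The FPKM ratio of Cox7a1 to Cox7a2 averaged 1.07 ± 0.0840 (SD, n = 4) in NOR and 0.492 ± 0.186 in CAC. AM had 0.870 ± 0.247 and KD 0.937 ± 0.162. On the log2 CPM scale NOR had ratios of -0.37, -0.46, -0.65 and -0.47 and CAC of -1.47, -1.05, -2.39 and -1.84, while AM had -1.02, -1.19, -0.80 and -0.30 and KD -0.78, -1.03, -0.50 and -0.48. CAC lay below NOR and KD without overlap, and AM overlapped CAC. The log2 ratio differed by -1.20 in CAC vs. NOR (exact permutation p = 0.0286, the smallest that 4 against 4 can give, and 0.214 after adjustment over 15 ratio tests). It differed by 0.99 in KD vs. CAC (exact p = 0.0286, adjusted 0.214) and by 0.86 in AM vs. CAC (exact p = 0.0571, adjusted 0.286). Without the 4 libraries the 3 differences were -1.15, 0.97 and 0.89.

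**Figure D2:**
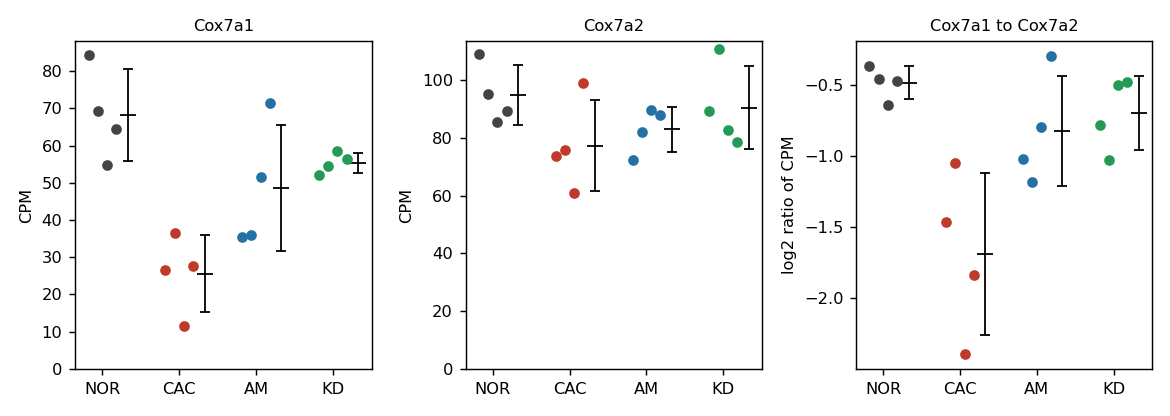
CPM of Cox7a1 and Cox7a2 (from 0) and the log2 ratio of their CPM per mouse, with points in the order of replicates 1 to 4 and the mean ± SD (n = 4) beside each group. Cox7a1 stayed at or under 36.6 CPM in the 4 CAC mice and at or above 54.7 CPM in the 4 NOR mice, whereas Cox7a2 overlapped between these groups.

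The ratios of the other 4 isoform pairs in the 3 comparisons had exact permutation p-values of 0.171 or more. Cox6a2 and Cox8b, the muscle isoforms of subunits VIa and VIII, had log2 fold changes in CAC vs. NOR of 0.19 (FDR 0.583) and -0.28 (FDR 0.441). The FPKM ratio of Cox6a2 to Cox6a1 was 7.20 ± 2.61 in NOR and 6.94 ± 2.23 in CAC, and that of Cox8b to Cox8a was 2.64 ± 0.912 and 1.89 ± 0.710. Cox4i2, an isoform known from lung, stood at 0.00692 ± 0.00109 of Cox4i1 in NOR and 0.00807 ± 0.000970 in CAC. Ndufa4l2 stood at 0.0422 ± 0.00509 of Ndufa4 in NOR and 0.0446 ± 0.00961 in CAC.

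Cox6a1 and Cox8a are the isoforms of most tissues other than muscle, and Cox6a1 was highest in the mice with the most RNA of adipocyte markers. Cox6a1 had 59.8, 69.2, 68.5 and 102 CPM in NOR and 60.6, 76.3, 114 and 106 CPM in CAC. In AM it had 97.6, 128, 80.8 and 76.6 CPM, and KD had 160, 74.1, 63.0 and 99.4 CPM. The 8 adipocyte markers summed to 2695 to 3536 CPM in 6 mice (NOR replicate 4, CAC replicates 3 and 4, AM replicate 2 and KD replicates 1 and 4) and to 1001 to 1812 CPM in the other 10. Cox6a1 had 99.4 to 160 CPM in those 6 mice and 59.8 to 97.6 CPM in the other 10, and Cox8a 78.2 to 120 CPM and 52.7 to 81.2 CPM, which overlapped. Because the marker sums fell into separate ranges, no relation with them over all 16 mice is given. The split and the relations within each range were chosen after the values were seen. Their p-values take no account of the group of a mouse and were adjusted apart from the 16 relations over all mice. Within the upper 6, Pearson's r for Cox6a1 was 0.874 (exact permutation p = 0.0194, adjusted over 4 relations 0.0389) and Spearman's rho was 0.943 (exact p = 0.0167, adjusted 0.0667), and r was 0.662 without the 2 mice farthest from the median. Within the lower 10, r was 0.405 (permutation p = 0.247, adjusted 0.269) and rho 0.358 (permutation p = 0.312, adjusted 0.312), with r = 0.0860 without the 2 farthest. For Cox8a, r was 0.873 (exact p = 0.0194, adjusted 0.0389) and rho 0.8286 (exact p = 0.0583, adjusted 0.117) in the upper 6, and r was 0.386 (permutation p = 0.269, adjusted 0.269) and rho 0.455 (permutation p = 0.192, adjusted 0.256) in the lower 10. Without the 2 farthest mice, which leaves 4 and 8, these r values for Cox8a were 0.295 and 0.0118. The sum of the 10 skeletal muscle markers was spread more evenly, from 66172 to 199900 CPM, and over the 16 mice it was related inversely to both genes, in relations chosen after the values were seen. Pearson's r was -0.633 for Cox6a1 (permutation p = 0.00849, adjusted over 16 relations 0.0272) with rho -0.747 (permutation p = 0.00129, adjusted 0.00516) and r = -0.696 without the 2 farthest mice. For Cox8a r was -0.700 (permutation p = 0.00186, adjusted 0.00744) with rho -0.768 (permutation p = 0.000900, adjusted 0.00480) and r = -0.714 without the 2 farthest. Within groups, after subtraction of the group means, these r were -0.786 and -0.814. For the muscle isoforms, r with the same sum was 0.342 for Cox6a2 (permutation p = 0.194, adjusted 0.283), or 0.853 without the 2 farthest mice, and 0.634 for Cox8b (permutation p = 0.0127, adjusted 0.0338). Their rho were 0.482 and 0.456 (permutation p = 0.0601 and 0.0786, both adjusted 0.155), and r for Cox8b was 0.591 without the 2 farthest. With the erythrocyte markers r lay between -0.133 and 0.282 for the 4 genes, with adjusted permutation p-values of 0.389 or more. The B lymphocyte sums also fell into separate ranges, so no relation with them is given. Cox6a1 shares 18.5% of its words with other annotated genes. The part of fat tissue or of muscle RNA in these levels was not tested.

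**Figure D3:**
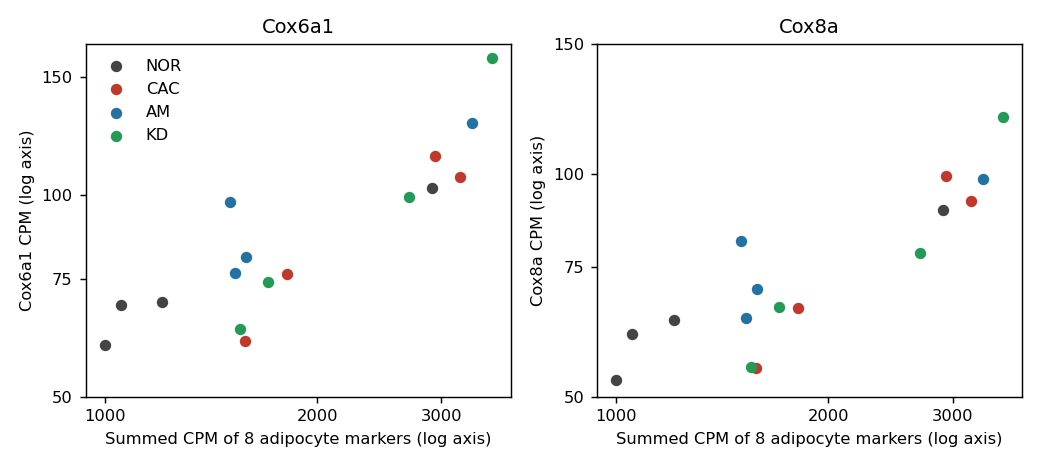
CPM of Cox6a1 and Cox8a (vertical, log axes) against the summed CPM of 8 adipocyte marker genes (horizontal, log axes), with 1 point per mouse coloured by group. The 6 mice at 2695 to 3536 CPM of markers come from all 4 groups and hold the highest Cox6a1 values.

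In complex V, Atp5g3 and Atp5j fell in CAC vs. NOR and 16 of 17 tested members had a log2 fold change below 0. Atp5g3 (ENSMUSG00000018770, chromosome 2, 73908447 to 73911326), 1 of 3 genes for the same mature subunit c of the rotor ring, had 410, 332, 293 and 294 CPM in NOR and 192, 211, 153 and 249 CPM in CAC. The groups did not overlap, and the log2 fold change was -0.74 (SE 0.18, edgeR FDR 0.0312). Atp5j, coupling factor 6 of the stalk, had 215, 218, 175 and 166 CPM in NOR and 128, 139, 90.3 and 145 CPM in CAC. It was lower in every CAC library, with a log2 fold change of -0.63 (SE 0.17, edgeR FDR 0.0401), and it shares 11.4% of its words with other genes, most of them with Gabpa beside it. Atp5b had 3436, 2614, 2530 and 2612 CPM in NOR and 2013, 2074, 1432 and 2622 CPM in CAC. CAC replicate 4 reached the NOR range, and the log2 fold change of -0.47 did not pass the test (SE 0.21, FDR 0.183). Atp5j2, a subunit of the membrane part, had one of -0.51 (FDR 0.0724), the longer Atp5o entry, a subunit of the stalk, one of -0.46 (FDR 0.168), with 49.6% of its words shared, and Atp5s, named as a coupling factor, one of -0.18 (FDR 0.553).

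The 3 genes of subunit c changed their proportions. Of their summed FPKM, Atp5g2 made up 24.4%, 26.4%, 26.2% and 27.8% in NOR and 43.3%, 40.1%, 42.1% and 35.5% in CAC. In AM its shares were 33.6%, 31.1%, 26.9% and 26.3%, and KD had 27.3%, 34.7%, 28.9% and 26.7%. The CAC shares lay above those of all other groups without overlap. Atp5g3 made up 54.9% ± 0.806 (SD, n = 4) in NOR against 42.8% ± 2.47 in CAC, and AM had 54.1% ± 3.65 and KD 53.3% ± 4.59. Atp5g1 made up 18.9% (NOR), 16.9% (CAC), 16.4% (AM) and 17.3% (KD). The share of Atp5g2 differed by 14.0 percentage points in CAC vs. NOR, by -10.8 points in AM vs. CAC and by -10.8 points in KD vs. CAC, and that of Atp5g3 by -12.1, 11.3 and 10.5 points. For each of these 6 differences, and for the one of -1.99 points of Atp5g1 in CAC vs. NOR, the exact permutation p was 0.0286, the smallest possible. After adjustment over 9 tests it was 0.0367. These tests were added after the values were seen and are not independent because shares sum to 100%. The adjusted value is low because most of the 9 tests sat at the same smallest p. It cannot be ranked against that of the Cox7a1 ratio. The sizes depend on the unit: as shares of CPM, the differences were 9.66, -6.80 and -7.16 points for Atp5g2 and -6.72, 8.08 and 6.89 points for Atp5g3. Without the 4 libraries the FPKM differences of Atp5g2 were 15.6, -13.2 and -11.7 points. In its own right Atp5g2 had 160, 142, 124 and 136 CPM in NOR and 183, 179, 135 and 170 CPM in CAC, which overlapped (log2 fold change 0.24, FDR 0.257). In FPKM, the unit of the shares, Atp5g2 had 191 to 224 in NOR and 261 to 281 in CAC. AM had 208 to 222 and KD 189 to 243 FPKM, so CAC lay above every other group on that scale. The share also carries the lower level of Atp5g3. Atp5g2 shares 40.2% of its words with other annotated genes, the most (37.5%) with Gm10175, and Atp5g1 shares 14.1%, so reads of these 2 may be split.

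**Figure D4:**
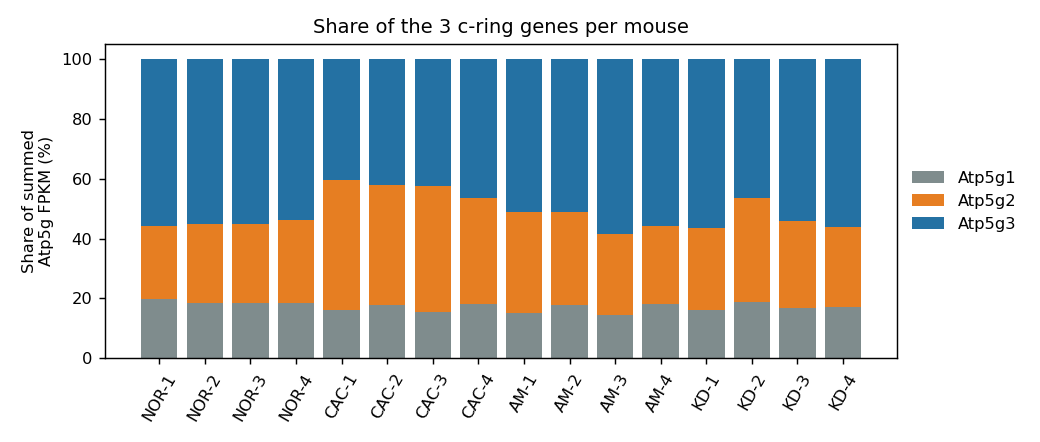
Share (%) of the summed FPKM of the 3 subunit c genes held by Atp5g1, Atp5g2 and Atp5g3 in each of the 16 mice, stacked to 100%. Atp5g2 held 35.5% to 43.3% in the CAC mice and 24.4% to 27.8% in the NOR mice.

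Above 0 in CAC vs. NOR stood 6 members, none of which passed the test. Besides Ndufa7, Cox6a1, Cox8a, Cox6a2 and Atp5g2 this was Cox7a2l, a factor of supercomplex assembly named after its values were seen, at 105, 118, 104 and 111 CPM in NOR and 121, 130.3, 116 and 109 CPM in CAC (log2 fold change 0.12).

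In AM vs. CAC, which asks how amiloride changed the muscle of tumor-bearing mice, 0 members passed the edgeR threshold in either direction, where 1.63% of all 14674 genes were higher and 2.03% lower. At an unadjusted edgeR p under 0.05, 13 members were higher (9.47% of all genes) and 2 lower (12.2%). The 13 became 22 with upper-quartile scaling (11.5%) and 6 with a replicate block (6.52%). Leaving out AM replicate 4 gave 2 (7.56%), AM replicate 3 gave 4 (8.34%), CAC replicate 3 gave 5 (10.0%), CAC replicate 1 gave 7 (7.59%) and CAC replicate 4 gave 22 (9.54%). limma-voom called 0 members and DESeq2 called 2 higher, Uqcrc1 and Ndufs1, where it called 4.37% of all genes higher. The log2 fold change was above 0 for 72 of 82 members (50.9% of all genes), with a median of 0.18 against 0.01 for all genes, which is smaller than the SD of 0.235 between mice of a group. Medians were 0.18 in complex I, 0.37 in complex II, 0.22 in complex III, 0.11 in complex IV and 0.20 in complex V. The lowest FDR was that of Uqcrc1, with a log2 fold change of 0.69 (SE 0.19, edgeR FDR 0.0763), followed among the called genes above by Ndufs1 at 0.64 (FDR 0.123), Ndufs8 at 0.45 (FDR 0.135), Atp5g3 at 0.52 (FDR 0.138), Cox7a1 at 0.93 (FDR 0.165) and Uqcrc2 at 0.48 (FDR 0.182). AM lay above CAC without overlap for 4 members (6.05% of all genes), Uqcrc1, Ndufs1, Atp5a1 and Ndufa13, and below it for 2 (9.27%), Ndufa7 and Cox7a2l. Ndufa7 had 91.6, 107, 105 and 104 CPM in AM against 109 to 162 CPM in CAC (log2 fold change -0.37, FDR 0.108).

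**Figure D5:**
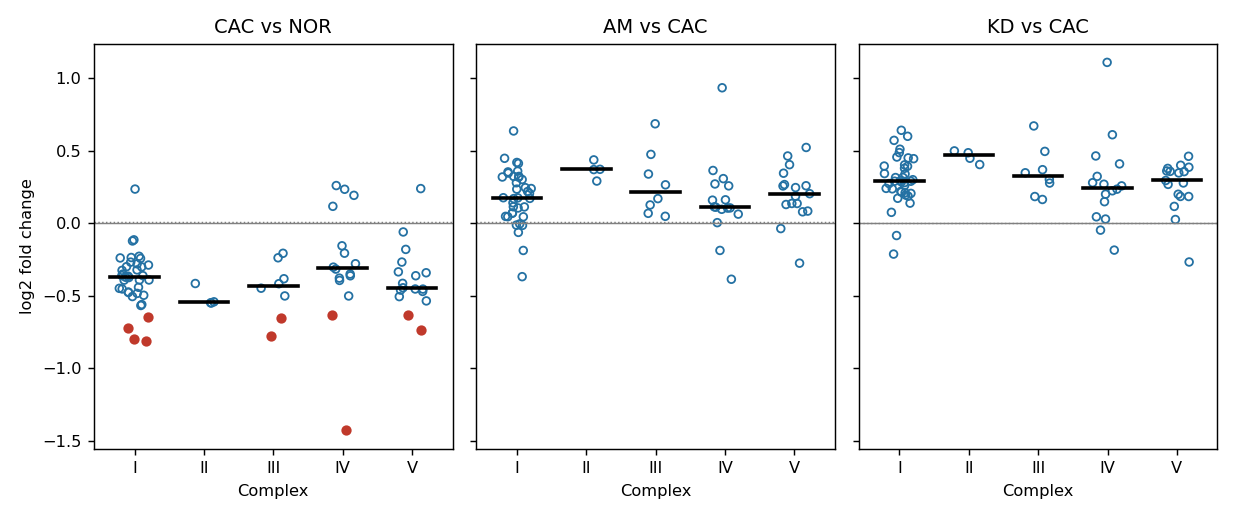
log2 fold change (vertical) of the 82 tested members by complex (horizontal) in the 3 comparisons with CAC, with 1 circle per gene, filled red where it is a DEG, and a black line at the median of the complex. The solid grey line marks 0 and the dotted one the median of all genes, and the 10 filled circles stand only in CAC vs. NOR. The 3 panels share the CAC libraries.

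In KD vs. CAC, which asks how the knock-down of Rab27 in the tumor changed the muscle, 0 members passed the edgeR threshold, as did 0% of all 14593 genes upward and 0.00685% downward. At an unadjusted edgeR p under 0.05, 16 members were higher (6.06% of all genes) and 0 lower (5.09%). The 16 became 33 with upper-quartile scaling (7.53%), 30 with all 16 libraries in 1 fit (8.35%) and 9 with a replicate block (3.41%). Leaving out KD replicate 3 gave 8 (5.15%), CAC replicate 1 gave 9 (4.88%), CAC replicate 3 gave 10 (4.36%) and CAC replicate 4 gave 33 (5.5%). With KD replicate 2 left out, 3 members were lower (9.33%). limma-voom called 0 members and DESeq2 called 3 higher, Uqcrc1, Ndufs8 and Cox7a1, where it called 1.58% of all genes higher. The log2 fold change was above 0 for 77 of 82 members (50% of all genes), with a median of 0.29 against 0.00 for all genes and an SD of 0.234 between mice of a group. Medians were 0.29 in complex I, 0.47 in complex II, 0.33 in complex III, 0.25 in complex IV and 0.30 in complex V. KD lay above CAC without overlap for 16 members (3.71% of all genes) and below it for 0 (3.58%). Cox7a1 had the largest log2 fold change, 1.11 (SE 0.29, edgeR FDR 0.268), followed among the called genes above by Uqcrc1 at 0.67 (FDR 0.297), Ndufs1 at 0.64 (FDR 0.331), Ndufc1 at 0.60 (FDR 0.317) and Ndufs8 at 0.57 (FDR 0.280).

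The 3 comparisons with CAC share its libraries, so their values are set side by side only. Without the 4 libraries set apart by Trim12a, 2 AM and 3 CAC libraries gave 0 DEGs among the members by edgeR, as among all genes (0%), with 7 higher at an unadjusted p under 0.05 (7.21% of all genes) and a median of 0.29. From 3 KD and 3 CAC libraries there were 0 DEGs, again as among all genes, with 35 higher at an unadjusted p under 0.05 (5.96% of all genes) and a median of 0.44. Without CAC replicate 3 the medians were 0.11 (AM vs. CAC) and 0.22 (KD vs. CAC). In AM vs. NOR 0 members were DEGs, where 0% of all 14738 genes were, and 4 were lower (4.13% of all genes) and 0 higher (5.06%) at an unadjusted edgeR p under 0.05, with a median of -0.18, and of -0.08 without NOR replicate 1. The 4 became 13 without NOR replicate 3 (3.25%), 12 without AM replicate 3 (4.13%) and 11 without AM replicate 4 (6.48%). They became 1 without NOR replicate 1 (2.44%), NOR replicate 2 (2.67%) or AM replicate 1 (2.52%), and 0 without AM replicate 2 (3.59%). The median was -0.11 without AM replicate 1. In KD vs. NOR 0 members were DEGs, where 0% of all 14748 genes were, and 0 had an unadjusted p under 0.05 (1.38% of all genes lower and 2.16% higher), with a median of -0.07. That median turned to 0.01, with 48 of 82 members above 0, without NOR replicate 1 and was -0.15 without KD replicate 2, -0.03 without KD replicate 1 or KD replicate 4, and -0.11 without NOR replicate 3 or NOR replicate 4. In AM vs. KD the numbers were also 0 (0% of all genes) and 0 (0.576% lower and 0.529% higher), with a median of -0.11. It was -0.05 without AM replicate 1, -0.05 without KD replicate 2, -0.17 without AM replicate 3 and -0.04 with total-count scaling. Across the 4 groups the mean CPM was lowest in CAC for 70 of 82 members and highest in NOR for 65.

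By labelled strain, the median log2 CPM difference of the members in CAC vs. NOR was -0.43 in the mice labelled C57BL/6 and -0.36 in those labelled BABL/c. In AM vs. CAC it was 0.00 and 0.42, with 41 of 82 members above 0 in the former and 74 of 82 in the latter, and in KD vs. CAC 0.27 and 0.36. The difference between the labels was tested by the interaction of label and condition in edgeR. An unadjusted p under 0.05 was reached by 0, 9 and 1 members in the 3 comparisons, where 4.89%, 12.4% and 5.65% of all genes reached it, and 0 members passed an FDR of 0.05. The lowest FDR was that of Cox8a in AM vs. CAC (edgeR FDR 0.269).

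Other genes of oxidative metabolism were counted from lists of related genes, to be read against the 5.13% of all genes that fell in CAC vs. NOR. The 13 mitochondrially encoded subunits were all below 0 in CAC vs. NOR, with a median of -0.43, but 0 were DEGs by edgeR. An unadjusted p under 0.05 was reached by 2, where 13.6% of all genes were lower at that limit. Their medians were 0.24 for AM and 0.44 for KD against CAC, with 0 DEGs in both by edgeR. At an unadjusted p under 0.05 there were 0 in both (9.47% and 6.06% of all genes higher). Of 5 tested subunits and partners that the symbol rule did not take, 2 fell in CAC vs. NOR, the electron carrier Cycs (log2 fold change -0.84, edgeR FDR 0.0141) and Cyc1, cytochrome c1 of complex III (-0.79, FDR 0.0431). Of 14 genes of the citric acid cycle 4 fell, with a median of -0.56, among them Idh3a, a subunit of isocitrate dehydrogenase (-1.02, edgeR FDR 0.0107). Of 46 assembly factors 3 fell, Taco1 (-1.06, FDR 0.00383), which activates translation of mitochondrial Cox1, Ndufaf1 (-0.80, FDR 0.00644) of complex I and Bcs1l (-0.76, FDR 0.00858), which inserts the Rieske protein into complex III, and the median was -0.31. Of 13 genes of coenzyme Q synthesis 2 fell (median -0.52), while their summed level overlapped (1428 to 1771 CPM in NOR, 1223 to 1718 CPM in CAC). Of 7 genes of ATP and phosphate exchange 1 fell, Ckmt2, the mitochondrial creatine kinase of muscle (-1.30, edgeR FDR 0.0382). Their summed level was 6344 to 8298 CPM in NOR and 2618 to 5236 CPM in CAC, without overlap. Of 78 proteins of the mitochondrial ribosome 2 fell and the median was -0.08. Of 14 regulators 2 fell, Esrra, an estrogen-related receptor (-0.73, edgeR FDR 0.0244), and its coactivator Ppargc1b (-0.69, FDR 0.0381), and the median was -0.01. In AM vs. CAC 1 regulator, Ppargc1b (0.88, FDR 0.0444), and 1 gene of coenzyme Q synthesis, Coq10b (0.80, FDR 0.0444), rose, as did 1.63% of all genes.

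Marker genes of cell types moved beside the members. Of all genes in CAC vs. NOR, 4.32% rose and 5.13% fell past the threshold. At an unadjusted edgeR p under 0.05, 15.5% of all genes were higher and 13.6% lower. Of 10 skeletal muscle markers 0 were DEGs in CAC vs. NOR by edgeR, with 3 at an unadjusted p under 0.05 and a median of -0.44, and their summed level was 140880 to 199900 CPM in NOR and 66172 to 151690 CPM in CAC, beside 125210 to 163910 CPM (AM) and 111590 to 190510 CPM (KD). The 10 fast-fibre markers had a median of -0.22 and the 10 slow-fibre markers one of 0.04, each with 0 DEGs by edgeR and with 3 and 0 at an unadjusted p under 0.05. In KD vs. CAC the slow-fibre markers had a median of 0.77 with 10 of 10 above 0, beside the members' 0.29. By edgeR 0 were DEGs, with 1 at an unadjusted p under 0.05 (6.06% of all genes higher). Their summed level was 2819 to 9756 CPM in CAC and 5827 to 12818 CPM in KD. Erythrocyte markers rose in CAC vs. NOR (5 of 6, median 2.30), with summed levels of 1003 to 1375 CPM in NOR and 3647 to 8716 CPM in CAC, and neutrophil markers rose too (3 of 7, median 2.92). Of 6 endothelial markers 2 rose, Pecam1 (0.77, edgeR FDR 0.0126) and Vwf (0.87, FDR 0.0117), while 3 were below 0, with Kdr lowest (-0.91, FDR 0.115), and the median was 0.17. The markers of adipocytes (8, median 0.51), brown adipocytes (3 tested), macrophages (7), B lymphocytes (6) and T lymphocytes (8) held 0 DEGs by edgeR, with 0, 1, 2, 0 and 0 at an unadjusted p under 0.05. The 6 B lymphocyte markers summed to 0.502 to 2.98 CPM in NOR replicate 1, CAC replicates 1 and 4 and KD replicates 2 and 3, and to 29.7 to 365 CPM in the other 11 libraries. With the B lymphocyte level as a covariate, added after the values were seen, 23 members fell in CAC vs. NOR, as did 6.87% of all genes. The part of these cell types in the members' changes was not tested.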

How the data were processed

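Poly(A) RNA of gastrocnemius from 16 mice was sequenced by the authors, whose submitted notes name fastp, Bowtie2, HISAT2, StringTie 1.3.1 and the builds mm9 and GRCm38 without a role. The counting tool and strandedness are not given in the sources used here. The deposited table holds raw counts per gene and FPKM, which the authors computed from the counts with 1 length per gene (spread of at most 0.0882% in 3588 genes). Counts were analysed with edgeR 4.0.16 in R 4.3.3 (TMM, filterByExpr at 10 counts and a total of 15, quasi-likelihood F test, Benjamini-Hochberg over all genes) on the 8 libraries compared. NOISeq, the authors' tool, was not used here. Alternatives were DESeq2 1.42.0, limma-voom 3.58.1, other scalings, filters and covariates, and leaving out mice. Isoform log2 ratios used a prior count of 2 and two-sided exact permutation tests. The edgeR script was checked on counts simulated with known changes, and no value of that check is quoted. The p-values measure the spread between these singly housed mice.

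Positions and shared 31-base words come from GENCODE M21 (GRCm38), and promoters from RefSeq. The members, lists and alternatives were chosen with earlier results of these data known. Named with values were, in each complex, the 3 members with the smallest p in CAC vs. NOR and those of highest and lowest NOR FPKM, genes of 5 isoform pairs, the Atp5g genes, up to 8 called members per comparison, and members that failed the filter. Figures were made with Python 3.11.15 and matplotlib 3.10.9.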

Additional observations from a re-analysis of the deposited data

Results flagged for a closer look

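Among 176 sets of 4 values (named members and complex sums in each group), 6 had 1 mouse far from the other 3, by the gap to the nearest value divided by the whole range, past Dixon's limit for 4 values. Chance gives about 1 in 20 such sets, or 8.8. In 5 of the 6 the mouse was NOR replicate 1, the highest of its group: Atp5b (0.908), Ndufs1 (0.910), Uqcrc2 (0.879), the summed CPM of complex III (0.869) and that of complex V (0.836). The last was Ndufs4, highest in KD replicate 2 (0.833).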

How the results depend on the processing

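In CAC vs. NOR 10 members fell in the comparison as reported (5.13%). The number was 6 with total-count scaling (4.22% of all genes fell), 3 with a replicate block (4.14%), 23 with the B lymphocyte level as a covariate (6.87%, added after the values were seen), and 0 in the mice labelled C57BL/6 alone and 0 in those labelled BALB/c alone, where 2 against 2 mice were compared (0.835% and 0%). Leaving out 1 mouse gave 0 (without NOR replicate 1 or 2, 3.36% and 2.9% of all genes) to 13 (without CAC replicate 4, 4.89%). In between stood 1 without CAC replicate 1 (3.24%), 2 without NOR replicate 3 (2.6%), 5 without CAC replicate 3 (4.09%), 6 without CAC replicate 2 (4.49%) and 9 without NOR replicate 4 (4.3%). Upper-quartile scaling gave 14 (6.26%), and DESeq2 (7.38%), limma-voom (5.63%), no filter (3.99%), a minimum count of 50 (5.7%) and the labelled strain as a covariate (5.71%) gave 10 each. Fewer mice were tested in the left-out sets, and the cause of the other differences was not tested. Total-count scaling moved the median log2 fold change of all genes to 0.14 in CAC vs. NOR and that of the members to -0.25. DESeq2 called 2 members (AM vs. CAC, 4.37% of all genes) and 3 members (KD vs. CAC, 1.58%), all higher, against 0 by edgeR. The replicate numbers did not pair the mice: deviations of same-numbered mice correlated at 0.62, 0.13, 0.34 and -0.19 (CAC vs. NOR), at -0.37, 0.05, -0.47 and -0.31 (AM vs. CAC) and at -0.65, -0.26, -0.56 and -0.39 (KD vs. CAC), and under the block 0 members were called in the last 2, as were 0% of all genes. In AM vs. CAC the median of the members was 0.02 in the mice labelled C57BL/6 alone, with 43 of 82 above 0, and 0.37 in those labelled BALB/c alone. For the 10 members that fell, the call was lost in 80 of the tests of single genes, always in the same direction. These losses include all 10 members in each labelled strain alone, where 2 against 2 mice were compared. They also include all 10 without NOR replicate 1 and all 10 without NOR replicate 2. Taken from CPM in place of FPKM, the Atp5g2 share differed by 9.66 (CAC vs. NOR), -6.80 (AM vs. CAC) and -7.16 points (KD vs. CAC), and that of Atp5g3 by -6.72 (CAC vs. NOR) and 8.08 points (AM vs. CAC). Without the 4 libraries, that of Atp5g1 in AM vs. CAC was 1.46 in place of -0.49 points.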
